A study of Mus musculus with 6 samples.

Results

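Glutathione and antioxidant defence genes were followed in stem-like cells sorted from skin squamous cell carcinomas. The genes were taken by name: the cytosolic and mitochondrial glutathione transferases (Gst), the microsomal transferases (Mgst), the glutathione peroxidases (Gpx), the peroxiredoxins (Prdx), and named genes of glutathione synthesis, thioredoxin recycling and the NRF2 response. With the brightest array feature kept for each gene, 44 of 30142 measured genes belonged to this group. The cells came from tumours of Sfrp1-/- mice (Sfrp1_KO), which lack the secreted Wnt antagonist Sfrp1, and of wild-type (WT) mice, with 3 samples of each genotype and 1 Affymetrix MTA 1.0 whole-transcript array per sample. All mice had received the mutagen DMBA on postnatal days 23, 25 and 27 and afterwards the tumour promoter TPA 2 times a week for 30 to 40 weeks. Cells that were lineage-negative and positive for Epcam, α6 integrin and CD34 were sorted. The labels state neither the deleted part of Sfrp1, nor the mice's age at collection, nor whether each sample was a different animal. The spread that the p-values rest on is that of these 6 samples alone and may be technical.

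Glutathione is a small thiol made in a pair of enzymatic steps, the first of which, run by glutamate-cysteine ligase, sets the rate. Transferases join it to reactive electrophiles such as the aldehydes left by lipid peroxidation and the metabolites of carcinogens, peroxidases spend it to reduce hydroperoxides, and glutathione reductase returns the oxidised form with NADPH. Peroxiredoxins reduce peroxides with electrons from thioredoxin. The transcription factor NRF2 (encoded by Nfe2l2) induces many of these genes through antioxidant response elements when its inhibitor KEAP1 is modified by electrophiles. In mice, loss of the pi-class transferases raises the number of skin papillomas after DMBA and TPA, and Gsta4 has been studied as a modifier of susceptibility to tumour promotion.

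Values are the deposited log2 signals, which differ between genes for reasons of probe design, so only values of the same gene are compared. They reached 19.93, above the 16 bits of a scanner, so no difference is turned into a fold and all stay on the deposited log2 scale. The background level of an array was its highest of 23 antigenomic probe sets, between 4.82 and 5.10, and between 33.2% and 42.5% of all genes stood above it. Sfrp1 itself was at 5.09, 5.11 and 5.15 on the Sfrp1_KO arrays, against 5.71, 5.48 and 6.07 on the WT arrays. Its difference of -0.64 (SE 0.15) did not pass the test over all genes (limma adjusted p = 0.0969, two-sided exact permutation p = 0.1, the smallest that 3 arrays against 3 allow). Markers of cell types moved with the genotype. Summed over 10 basal keratinocyte markers, the log2 signal was 58.2 to 59.3 in Sfrp1_KO and 96.4 to 100.8 in WT, with 8 of 10 called lower and Krt5 and Trp63 among them. The sort marker Epcam was at 4.99, 4.89 and 5.22 on the Sfrp1_KO arrays, around their background level, and at 7.43, 8.69 and 6.65 on the WT arrays. Of 12 macrophage and leukocyte markers 11 had a difference above 0 and 0 were called by limma (8 had an unadjusted p under 0.05). Their sum was 58.9 to 66.6 in Sfrp1_KO and 55.1 to 56.5 in WT, with Ptprc, Csf1r, Adgre1 and Fcer1g under background on all arrays. Lyz2 was at 7.94, 6.84 and 5.96 in Sfrp1_KO, against 5.11, 4.69 and 5.02 in WT (limma adjusted p = 0.0941). C1qa, C1qb, Laptm5 and Tyrobp stood above background on 2 Sfrp1_KO arrays each and on 0 WT arrays. Cd68 had the difference below 0 (-0.26). Of 9 fibroblast markers Pdgfrb and Thy1 were called higher and Fbln1 lower, and the sum was 57.7 to 64.0 in Sfrp1_KO and 49.7 to 61.0 in WT. Within WT, replicate 3 stood apart for Dcn (6.54, 6.58 and 10.56 in replicates 1, 2 and 3) and Dpt (5.41, 5.59 and 7.59). Markers of smooth muscle and pericytes (2 of 8 with an unadjusted p under 0.05), endothelium (1 of 8), melanocytes and Schwann cells (0 of 6) and red blood cells (0 of 2) had 0 called genes by limma. In addition, 1 of 10 sebaceous gland and hair follicle markers (Fasn) was called lower. Of 10 suprabasal keratinocyte markers Krt16, Krt17 and Dmkn were called lower, 8 had an unadjusted p under 0.05, and the sum was 47.3 to 47.8 in Sfrp1_KO and 70.1 to 82.9 in WT, with Lor and Flg under background on all arrays. The part of these shifts in the results below was not tested, and in a bulk sample fewer cells of a type and less RNA per cell cannot be told apart.

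Of the 44 antioxidant genes 1 was called lower in Sfrp1_KO, the alpha-class transferase gene Gsta4, and 0 were called higher, by limma at an adjusted p under 0.05. Over all genes 1.45% were called lower and 1.83% higher (3.28% in either direction). Without adjustment 10 of the 44 had p under 0.05, 4 higher and 6 lower (22.7%, against 14.4% of all genes). Among genes above background on every array of at least 1 genotype, the share was 33.3% of 24 antioxidant genes, against 30.0% of 10376 genes. The arrays of the genotypes did not overlap for 3 antioxidant genes that were higher in Sfrp1_KO (over all genes 9.1%) and for 10 that were lower (over all genes 10.8%, and 19.9% in either direction). Above background, 6 of the 24 did not overlap, 3 in each direction (25.0%, against 34.2% of the 10376 genes). This rule also admits genes that pass it in 1 genotype alone, which can raise the shares of the 10376 genes. On all 6 arrays, 23 of the 24 and 8687 of the 10376 stood above background. Neither excess over all 44 is read as a property of the group. The 3 higher ones were Gpx8, which passed the rule in Sfrp1_KO alone, Prdx4 and Txnrd1. Of the 10 lower ones Gsto2, Gstt1, Gstt3 and Gss lay under background on every array. The median difference of the 44 was -0.13, against -0.01 over all genes, and 31 of them (70.5%) had a difference below 0, against 54.2% of all genes. Above background the median was -0.11, against -0.04, and 62.5% lay below 0, against 56.1%. Of the 44 genes 23 stood above background on all 6 arrays, 24 on every array of at least 1 genotype, and 13 were under it throughout.

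**Figure D1:**
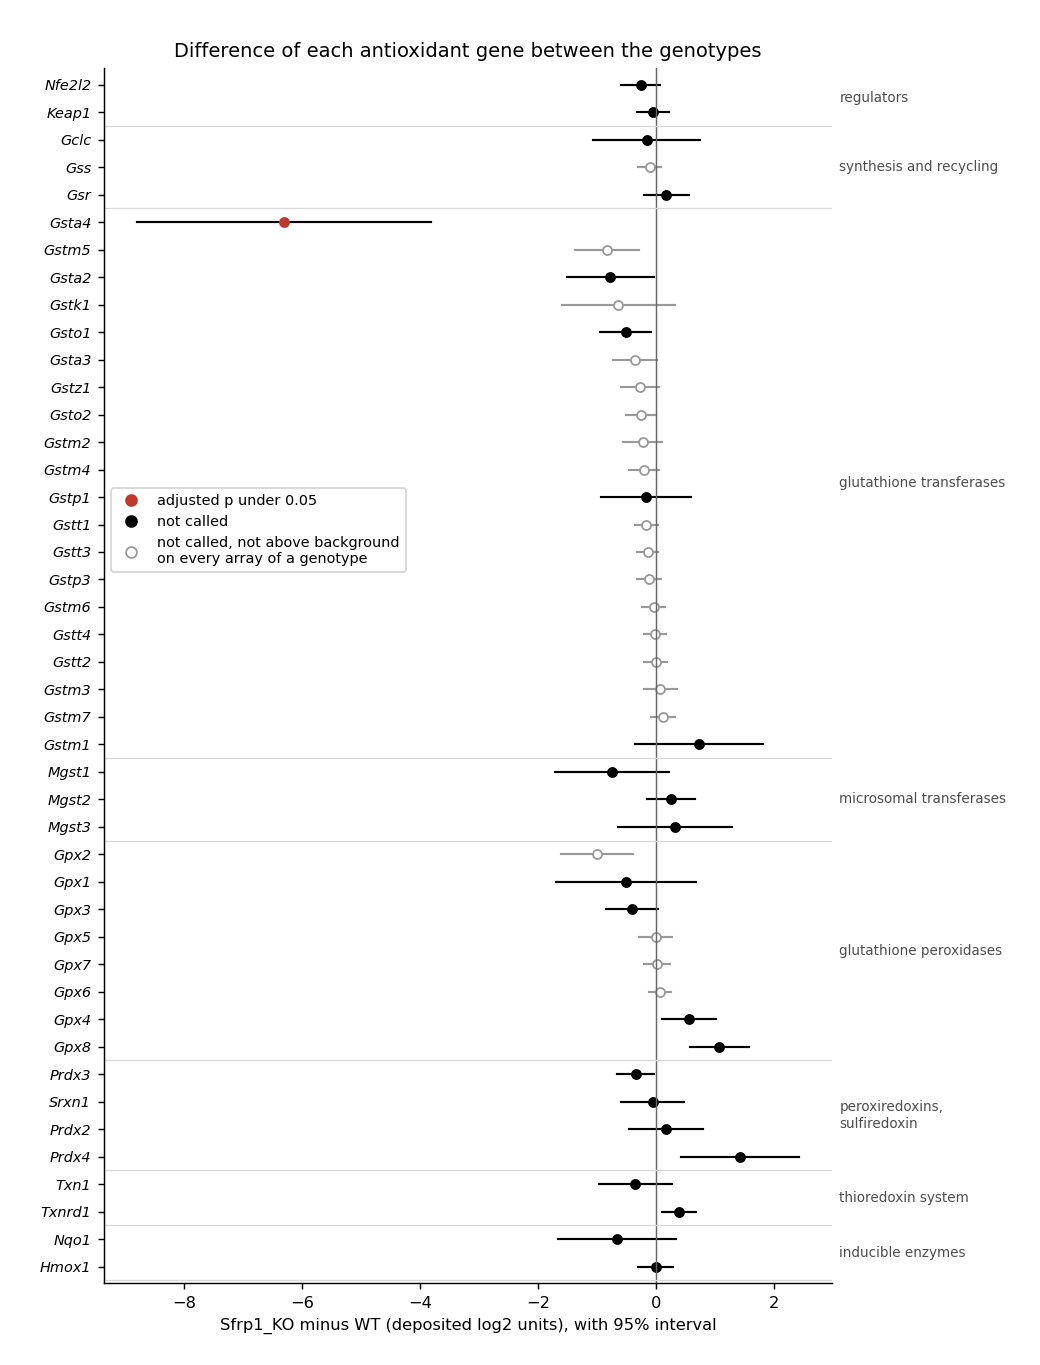
Difference between the genotypes for each of the 44 antioxidant genes, Sfrp1_KO minus WT in deposited log2 units on the horizontal axis, with the 95% interval of the limma fit as a line and genes grouped by role. Gsta4 at -6.30 is the 1 called gene, while the other 43 lie between -1.01 (Gpx2) and 1.42 (Prdx4).

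Among the transferases, Gsta4, whose enzyme conjugates 4-hydroxynonenal and related products of lipid peroxidation, was at 6.16, 5.52 and 6.15 on the Sfrp1_KO arrays, against 10.46, 11.51 and 14.76 on the WT arrays. Every Sfrp1_KO array lay below every WT array, and the WT arrays themselves were spread widely (SD 0.37 in Sfrp1_KO and 2.24 in WT, n = 3 each). Gsta4 fell by 6.30 (SE 1.04, 95% interval -8.79 to -3.81, limma adjusted p = 0.0300). The call ended without any 1 of the Sfrp1_KO arrays (limma adjusted p = 0.104, 0.133 and 0.0894 without replicates 1, 2 and 3) or without WT replicate 2 (0.0656), and with replicate number as a blocking factor (0.0543). The fall lay between 5.04 and 7.19 whichever array was left out. The summed basal and suprabasal keratinocyte markers separated the same arrays. The suprabasal marker Krt16 was at 4.92, 4.77 and 4.70 in Sfrp1_KO, against 11.28, 12.06 and 15.76 in WT. Its WT arrays had the same order as for Gsta4, as did those of Dmkn, Sbsn and Krtdap. In Krt1, Krt10, Krt17 and Ivl, and in Lor and Flg under background, WT replicate 2 was the lowest WT array instead. The part of these markers in the fall of Gsta4 was not tested.

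The other alpha-class genes were also below WT but were not called. Gsta2, a transferase with peroxidase activity towards lipid hydroperoxides, was at 5.60, 5.62 and 5.68 in Sfrp1_KO, against 5.90, 6.18 and 7.15 in WT. The genotypes did not overlap, and the difference was -0.78 (SE 0.31, adjusted p = 0.318). In both genes WT replicate 3 was the highest array and WT replicate 1 the lowest of its genotype. Gsta3 was at 4.64, 4.54 and 4.81 in Sfrp1_KO, under background, and at 4.71, 5.16 and 5.21 in WT (adjusted p = 0.368). Alpha-class paralogs are similar in sequence and can share probe signal, so the values of Gsta2 and Gsta3 are uncertain to that extent. Gsta2 and Gsta4 lie on chromosome 9 with Gclc, and Gsta3 on chromosome 1. The feature of Gsta1 carries a further gene name and was not used here.

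The 7 mu-class genes, all on chromosome 3, did not move as a block: 4 had a difference below 0 and 3 above, and 0 were called by limma (1 had an unadjusted p under 0.05). Gstm5 was at 4.45, 4.35 and 4.25 in Sfrp1_KO, under background, against 5.44, 4.66 and 5.47 in WT. It was lower by at least 0.12 (fitted difference -0.84, SE 0.22, adjusted p = 0.130), and it passed without WT replicate 2, the lowest WT array (-1.10, adjusted p = 0.0126). Gstm1, the mu-class member with broad activity towards electrophiles, was at 7.26, 7.07 and 6.62 in Sfrp1_KO, against 5.22, 6.99 and 6.57 in WT. WT replicate 1 lay well below the other 5 arrays, WT replicate 2 lay inside the Sfrp1_KO range and WT replicate 3 just below it, and the gene did not pass (0.73, SE 0.45, adjusted p = 0.588). Gstm3, Gstm6 and Gstm7 were under background on every array, and Gstm2 and Gstm4 stood above it on 2 WT arrays each. Mu-class genes are close paralogs as well, with the same caution.

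Gstp1, the pi-class transferase best known from epithelia and tumours, was at 8.41, 8.32 and 7.73 in Sfrp1_KO, against 8.91, 7.77 and 8.30 in WT. The ranges of the genotypes overlapped, although WT replicate 1 lay above and Sfrp1_KO replicate 3 just below all arrays of the other genotype (-0.18, SE 0.32, 95% interval -0.94 to 0.58, adjusted p = 0.914). Gsto1, an omega-class enzyme that reduces dehydroascorbate and other mixed disulfides, was at 7.42, 7.83 and 7.54 in Sfrp1_KO, against 8.33, 7.77 and 8.26 in WT (-0.52, SE 0.18, adjusted p = 0.250). Only WT replicate 2 fell inside the Sfrp1_KO range. Gstk1, the kappa-class enzyme of mitochondria and peroxisomes, was under background in Sfrp1_KO at 4.66 to 4.94, and in WT stood at 6.37 in replicate 1 and at 5.12 and 4.77 in replicates 2 and 3 (adjusted p = 0.584). The 4 theta-class genes Gstt1, Gstt2, Gstt3 and Gstt4, clustered on chromosome 10, were under background on all arrays. So were Gstp3 and Gsto2, and Gstz1, an enzyme of tyrosine breakdown, stood above it on 1 WT array.

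**Figure D2:**
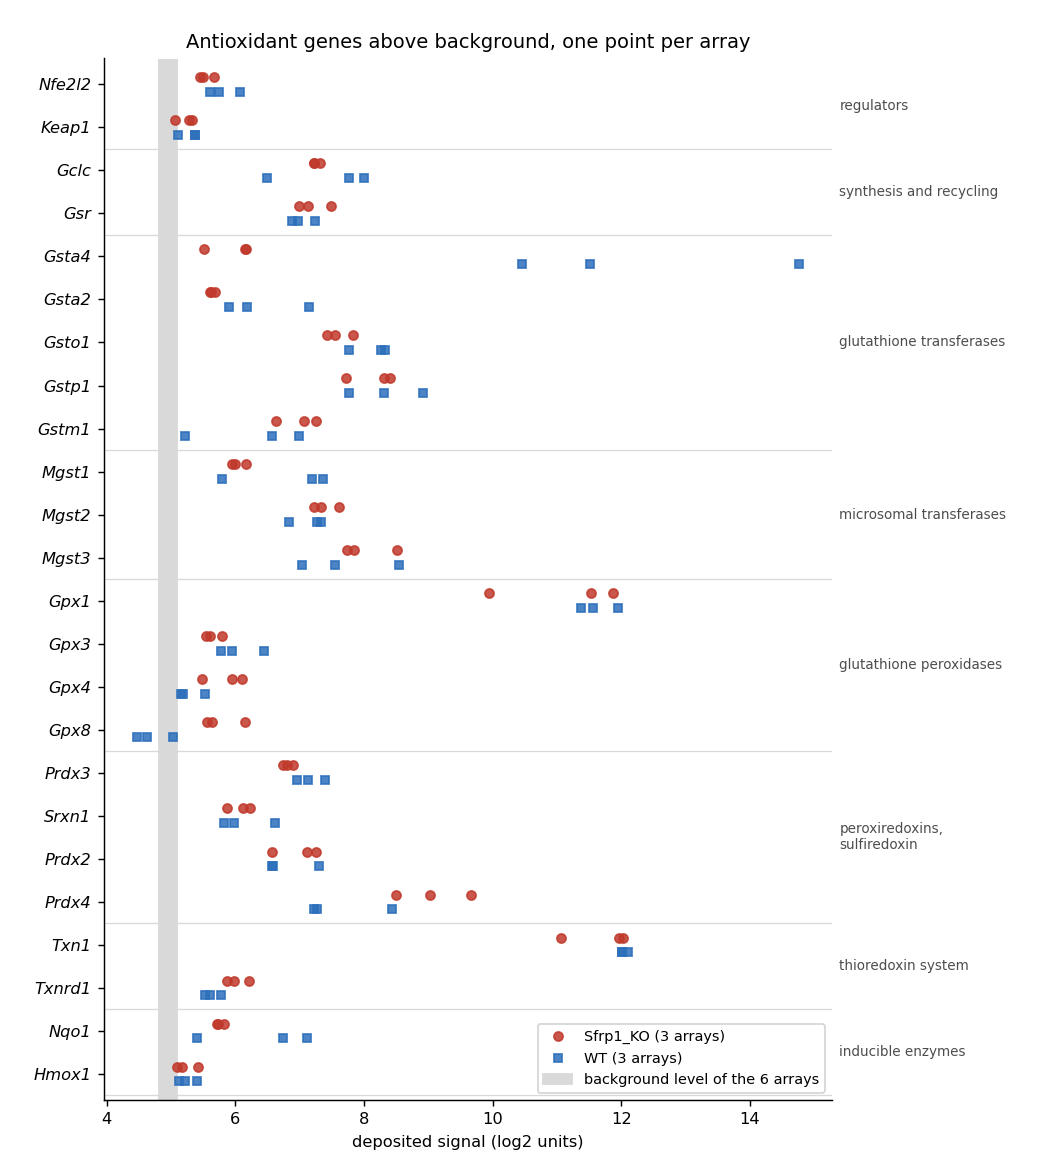
Deposited log2 signal of the 24 antioxidant genes that stood above background on every array of at least 1 genotype, 1 point per array (circles Sfrp1_KO, squares WT), with the range of the 6 background levels shaded. Gsta4 has the widest gap between genotypes, 5.52 to 6.16 in Sfrp1_KO and 10.46 to 14.76 in WT, while for most other genes the points of the genotypes overlap or lie close together.

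Of the genes for making and recycling glutathione 0 of 3 were called by limma, and 0 had an unadjusted p under 0.05. Gclc, the catalytic subunit of glutamate-cysteine ligase, was at 7.22, 7.23 and 7.31 in Sfrp1_KO, against 6.49, 7.77 and 7.99 in WT. The 3 Sfrp1_KO arrays lay close together (SD 0.05, against 0.81 in WT) and fell between WT replicate 1 and the other WT arrays. The mean difference was -0.16 (SE 0.38, adjusted p = 0.941). It was -0.63 without WT replicate 1 (adjusted p = 0.0489), and 0.01 and 0.12 without WT replicates 2 and 3, so its sign depended on the WT array left out. Gsr, glutathione reductase, was at 7.12, 7.49 and 6.99 in Sfrp1_KO and at 6.97, 7.23 and 6.88 in WT (0.17, SE 0.16, adjusted p = 0.764). Gss, glutathione synthetase, was under background throughout. The feature of Gclm, the regulatory subunit of the ligase, carries another gene name as well and was not used here.

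Nfe2l2, which encodes NRF2, was at 5.50, 5.67 and 5.45 in Sfrp1_KO, against 5.60, 5.74 and 6.06 in WT. The genotypes overlapped and the gene did not pass (-0.26, SE 0.14, 95% interval -0.59 to 0.07, adjusted p = 0.486). Keap1, its inhibitor, was at 5.32, 5.28 and 5.07 in Sfrp1_KO, against 5.11, 5.36 and 5.37 in WT (-0.06, SE 0.11, 95% interval -0.33 to 0.22, adjusted p = 0.923). Keap1 lay close to background on Sfrp1_KO replicate 3 (5.07, against 5.04) and on WT replicate 1 (5.11, against 5.09). The values of Nfe2l2 and Keap1 are transcript levels, and NRF2 activity is set largely at the protein. Hmox1, haem oxygenase 1, was at 5.43, 5.10 and 5.17 in Sfrp1_KO, against 5.40, 5.12 and 5.21 in WT, close to background on all 6 arrays (adjusted p = 0.991). Nqo1, a quinone reductase and textbook NRF2 target, was at 5.73, 5.82 and 5.71 in Sfrp1_KO, against 5.40, 6.74 and 7.11 in WT. As with Gclc, the Sfrp1_KO arrays were tightly grouped and lay between WT replicate 1 and the other WT arrays (-0.66, SE 0.41, adjusted p = 0.592).

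The same order appeared in Mgst1, a membrane-bound transferase and peroxidase of the endoplasmic reticulum and mitochondria. It was at 5.99, 5.95 and 6.16 in Sfrp1_KO, against 5.80, 7.19 and 7.36 in WT (-0.75, SE 0.40, adjusted p = 0.497). Without WT replicate 1 Mgst1 and Nqo1 passed the limma test (-1.24 and -1.17, adjusted p = 0.0118 and 0.0199), as did Gclc, Gpx2 and Gpx8. The count of called antioxidant genes became 5 lower and 1 higher of 44. In that fit 407 of all 30142 genes were called lower and 346 higher. Of the antioxidant genes called there, Gclc, Gpx2, Gpx8, Mgst1 and Nqo1 passed in no other fit that left out 1 array. Mgst2, which can make leukotriene C4, was at 7.33, 7.61 and 7.23 in Sfrp1_KO, against 6.83, 7.33 and 7.27 in WT. Mgst3 was at 8.51, 7.85 and 7.74 in Sfrp1_KO, against 8.55, 7.55 and 7.04 in WT. Neither separated the genotypes (adjusted p = 0.633 and 0.849).

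WT replicate 1 stood low for antioxidant genes more often than for genes at large, as a description of these arrays. Of the 24 antioxidant genes above background on every array of a genotype it was the lowest WT array in 10 (41.7%), against 19.4% of the 10376 genes that met the same rule. It was the highest WT array in 9 of 24 (37.5%), against 56.6%. Sfrp1_KO replicate 3 was the lowest array of its genotype in 16 of 24 (66.7%), against 55.7%. In 30 of all 44 antioxidant genes the SD was larger in WT (68.2%, against 58.0% of all genes). The median SDs were 0.13 in Sfrp1_KO and 0.23 in WT, against 0.12 and 0.14 over all genes. Above background they were 0.21 and 0.33 for the 24 antioxidant genes, against 0.16 and 0.21 for the 10376 genes. These shares carry no test, since genes vary together across arrays.

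**Figure D3:**
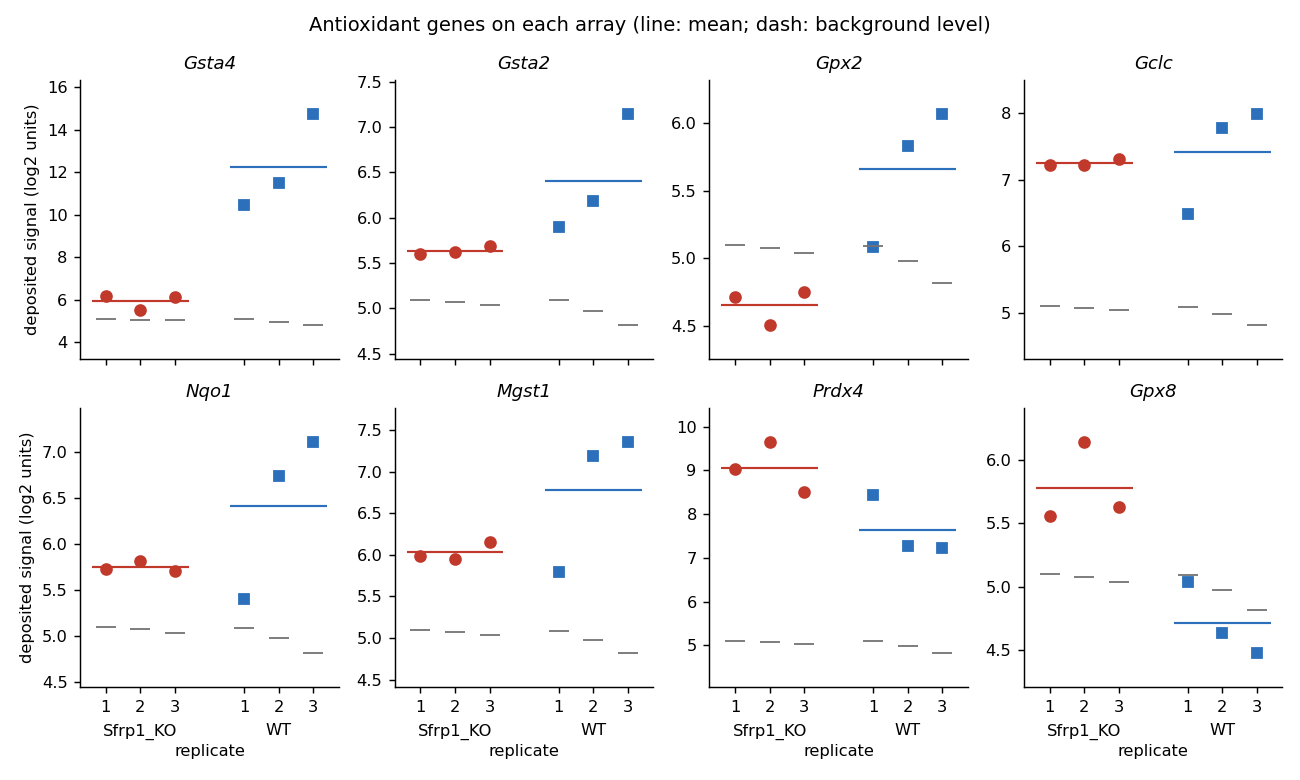
Deposited log2 signal of Gsta4, Gsta2, Gpx2, Gclc, Nqo1, Mgst1, Prdx4 and Gpx8 on each array, Sfrp1_KO left and WT right, with the genotype mean as a line and the background level of each array as a grey dash; each panel has its own vertical scale. For Gclc, Nqo1 and Mgst1 WT replicate 1 lies below all 3 Sfrp1_KO arrays and WT replicates 2 and 3 above them, while Prdx4 and Gpx8 are higher on every Sfrp1_KO array than on any WT array.

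The 8 glutathione peroxidase genes went in both directions, with 4 differences above 0 and 4 below. Gpx8, a membrane-anchored peroxidase of the endoplasmic reticulum, was at 5.56, 6.15 and 5.63 in Sfrp1_KO, against 5.04, 4.63 and 4.47 in WT. All WT arrays lay under their background level and all Sfrp1_KO arrays above it. Gpx8 was higher by at least 0.82 (fitted difference 1.07, SE 0.21) and just missed the call (limma adjusted p = 0.0523). It passed with dim features left out, after quantile normalization once more, with array weights, with trend and robust options and without WT replicate 1 (adjusted p = 0.0335 to 0.0470), and did not pass in the remaining fits (up to 0.142).

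Gpx2, the peroxidase first known from gut epithelium and an NRF2 target, was at 4.71, 4.50 and 4.75 in Sfrp1_KO, under background, against 5.08, 5.83 and 6.07 in WT. The genotypes did not overlap, and Gpx2 was lower by at least 0.59 (fitted difference -1.01, SE 0.25, adjusted p = 0.111). It passed without WT replicate 1 (-1.30, adjusted p = 0.0141) and with array weights (-1.12, adjusted p = 0.0357). Gpx4, which reduces phospholipid hydroperoxides and guards cells against ferroptosis, was at 6.10, 5.95 and 5.48 in Sfrp1_KO, against 5.53, 5.15 and 5.18 in WT. Sfrp1_KO replicate 3 fell just below WT replicate 1, and the gene did not pass (0.56, SE 0.19, adjusted p = 0.233).

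Gpx3, the secreted peroxidase of plasma, was at 5.79, 5.61 and 5.54 in Sfrp1_KO, against 5.94, 5.77 and 6.44 in WT (-0.41, SE 0.18, adjusted p = 0.387). Gpx1, the cytosolic form, was at 11.87, 11.54 and 9.94 in Sfrp1_KO, against 11.56, 11.37 and 11.94 in WT. Only Sfrp1_KO replicate 3 stood apart, and Gpx1 did not pass (adjusted p = 0.779). Gpx5, Gpx6 and Gpx7 were under background on every array; Gpx7 is, like Gpx8, a peroxidase of the endoplasmic reticulum.

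Prdx4, the peroxiredoxin of the endoplasmic reticulum and the secretory route, encoded on the X chromosome, was at 9.02, 9.66 and 8.50 in Sfrp1_KO, against 8.44, 7.27 and 7.22 in WT. The genotypes separated, with Sfrp1_KO replicate 3 just above WT replicate 1. The difference of 1.42 (SE 0.41, 95% interval 0.42 to 2.42) did not pass (limma adjusted p = 0.166), but did after quantile normalization once more (1.51, adjusted p = 0.0332). Prdx3, the mitochondrial peroxiredoxin, was at 6.81, 6.74 and 6.89 in Sfrp1_KO, against 7.13, 6.96 and 7.40 in WT, again without overlap (-0.35, SE 0.13, adjusted p = 0.268). Prdx2, a cytosolic member, was at 7.11, 7.25 and 6.57 in Sfrp1_KO, against 7.30, 6.58 and 6.56 in WT, with every Sfrp1_KO array inside the WT range (adjusted p = 0.895). Srxn1, sulfiredoxin, which repairs over-oxidised peroxiredoxins, was at 6.12, 6.23 and 5.87 in Sfrp1_KO, against 5.82, 5.98 and 6.61 in WT (adjusted p = 0.967). The feature of Prdx1 carries another gene name too and was not used here. No measured feature carried the name Prdx5 or Prdx6.

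Txnrd1, the cytosolic thioredoxin reductase, was at 5.98, 6.21 and 5.88 in Sfrp1_KO, against 5.77, 5.61 and 5.52 in WT. The genotypes did not overlap, the difference was small (0.39, SE 0.12), and it did not pass (adjusted p = 0.183). Txn1, the thioredoxin it reduces, was at 12.03, 11.97 and 11.06 in Sfrp1_KO, against 12.02, 12.01 and 12.10 in WT (-0.35, SE 0.26, adjusted p = 0.663). As for Gpx1, the difference lay in Sfrp1_KO replicate 3.

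The promoters of antioxidant genes were searched for the core of the antioxidant response element, TGACNNNGC, and for the TPA response element bound by AP-1, TGACTCA, on both strands. RefSeq promoter windows (GRCm38.p6, 250 bases before to 50 after the start) were found for 39 of the 44 genes, and not for Gsta4, Gclc, Gsr, Gstt2 and Hmox1. The response element core was in 7 of the 39 genes (17.9%), against 14.0% of all 27025 genes with a window, and the TPA element in 4 of 39 (10.3%), against 5.95%. No matched pair of the 2 motifs overlapped in the letters searched. In Gstp1 and Srxn1 a TPA match is followed by GC and reads TGAGTCAGC. With TGAG in place of TGAC, it was not counted as a core. A match is a description of letters in a short window, and many known elements lie outside it. The genes with the core were Gsta3, Gstm5, Gstm7, Mgst1, Nfe2l2, Srxn1 and Txnrd1, and their differences ran from -0.84 (Gstm5) to 0.39 (Txnrd1). The 1 called gene, Gsta4, had no window and was not searched. The 4 windows below show the core in genes that were lower (Gstm5, Mgst1), nearly level (Srxn1) and higher (Txnrd1) in their means; none of the 4 differences passed. Capitals mark the matches, 5′ to 3′ on the gene's strand; a match on the other strand reads as its reverse complement.
Gstm5, chr3:107895604-107895903, plus strand: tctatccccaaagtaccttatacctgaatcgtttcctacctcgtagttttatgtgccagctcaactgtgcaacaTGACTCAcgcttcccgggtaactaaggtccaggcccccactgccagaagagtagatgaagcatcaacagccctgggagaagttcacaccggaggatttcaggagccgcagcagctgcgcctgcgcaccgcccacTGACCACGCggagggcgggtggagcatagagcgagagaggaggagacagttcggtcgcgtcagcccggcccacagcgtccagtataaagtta
Mgst1, chr6:138140277-138140576, plus strand: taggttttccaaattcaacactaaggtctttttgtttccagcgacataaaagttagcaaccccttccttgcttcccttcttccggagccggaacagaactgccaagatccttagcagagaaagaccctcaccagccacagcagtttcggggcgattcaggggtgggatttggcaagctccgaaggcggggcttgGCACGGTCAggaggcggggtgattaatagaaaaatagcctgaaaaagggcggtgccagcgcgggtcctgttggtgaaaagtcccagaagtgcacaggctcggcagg
Srxn1, chr2:152105274-152105573, plus strand: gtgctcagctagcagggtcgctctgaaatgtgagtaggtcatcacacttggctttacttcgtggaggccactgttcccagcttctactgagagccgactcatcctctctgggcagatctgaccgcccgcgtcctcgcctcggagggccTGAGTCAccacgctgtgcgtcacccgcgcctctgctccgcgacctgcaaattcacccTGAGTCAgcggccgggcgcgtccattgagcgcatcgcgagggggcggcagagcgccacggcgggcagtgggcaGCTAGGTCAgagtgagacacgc
Txnrd1, chr10:82858956-82859255, plus strand: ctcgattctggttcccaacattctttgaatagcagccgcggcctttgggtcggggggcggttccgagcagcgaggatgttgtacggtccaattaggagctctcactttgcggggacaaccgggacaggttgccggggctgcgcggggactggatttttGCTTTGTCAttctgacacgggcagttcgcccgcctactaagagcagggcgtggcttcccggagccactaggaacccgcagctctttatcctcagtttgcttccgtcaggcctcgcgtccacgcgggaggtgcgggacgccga
Gstm5 holds the TPA element as TGACTCA at bases 75 to 81 of its window and the core as TGACCACGC at bases 209 to 217. Srxn1 holds the TPA element at 2 places, both as TGAGTCA on the other strand, and the core as searched after the start. Its TPA match at bases 206 to 212 is the one followed by GC. Mgst1 and Txnrd1 hold the core alone, on the other strand.

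Around the 44 genes, 6 lists of 102 entries cover partners of NRF2, other NRF2 targets, NADPH supply, superoxide and thioredoxin enzymes, cysteine and glutathione supply, and enzymes that produce oxidants. Of the 95 measured entries 4 were called higher and 5 lower. Over all 30142 genes 552 were called higher and 437 lower (3.28% in either direction). Among the 10376 genes above background on every array of at least 1 genotype, 504 were called higher and 404 lower. The counts of the lists carry no test and are not read as a property of the pathway. Among 11 NRF2 partners and regulators Sqstm1, the autophagy receptor p62 that binds KEAP1, was the 1 gene called, and it rose. Sqstm1 was at 8.23, 8.34 and 7.84 in Sfrp1_KO, against 6.60, 6.02 and 5.92 in WT (1.96, SE 0.22, limma adjusted p = 0.00892). Its call ended without Sfrp1_KO replicate 2 (0.0505). Among 17 other NRF2 target enzymes Aldh3a2, a fatty aldehyde dehydrogenase, was higher at the edge of the threshold (1.89, SE 0.36, adjusted p = 0.0499), and lost the call without any 1 array other than Sfrp1_KO replicate 2 and with replicate number as a blocking factor (0.109). Ptgr1, which inactivates leukotriene B4 and reduces lipid aldehydes, was lower by at least 0.72 (adjusted p = 0.0197) and lost the call without any 1 of the Sfrp1_KO arrays and with replicate number as a blocking factor (0.0614).

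None of 10 NADPH supply genes was called by limma (1 had an unadjusted p under 0.05). Of 21 superoxide, thioredoxin and repair genes Sesn3, a sestrin, rose by 2.70 (SE 0.32), at 8.25, 9.41 and 8.48 in Sfrp1_KO, against 6.15, 5.64 and 6.24 in WT, and kept its call without any 1 array, though not with replicate number as a blocking factor (adjusted p = 0.0556). Of 21 genes of cysteine and glutathione supply and turnover 2 were called lower and 0 higher by limma at an adjusted p under 0.05 (6 had an unadjusted p under 0.05). Cth, cystathionine gamma-lyase, which makes cysteine, was lower by at least 0.89 and kept its call without any 1 array. Glo1, the glyoxalase that uses glutathione to clear methylglyoxal, was at 6.15, 6.65 and 6.33 in Sfrp1_KO, against 7.84, 7.56 and 8.17 in WT (-1.48, SE 0.19), and lost its call without Sfrp1_KO replicate 1 or 3 and with the replicate number as a block.

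Of 15 oxidant-producing genes 1 was called higher and 2 lower by limma (5 had an unadjusted p under 0.05). Duox1, a hydrogen peroxide-generating oxidase of epithelia, was lower by at least 1.14, with all Sfrp1_KO arrays under background. Duoxa1, its maturation factor, was at 5.40, 5.27 and 5.28 in Sfrp1_KO, against 7.24, 6.99 and 6.97 in WT (-1.75, SE 0.10). Both kept their calls without any 1 array and with the replicate number as a block. Cyba, the p22phox subunit shared by several NADPH oxidases, was at 9.26, 9.10 and 8.07 in Sfrp1_KO, against 5.77, 6.63 and 6.10 in WT (2.65, SE 0.36), and lost its call without Sfrp1_KO replicate 1 or 2 or WT replicate 3. Its phagocyte partners Cybb, Ncf1 and Ncf4 were under background on every array. The macrophage and the basal and suprabasal keratinocyte markers given above moved on the same arrays, and their part in these values was not tested.

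**Figure D4:**
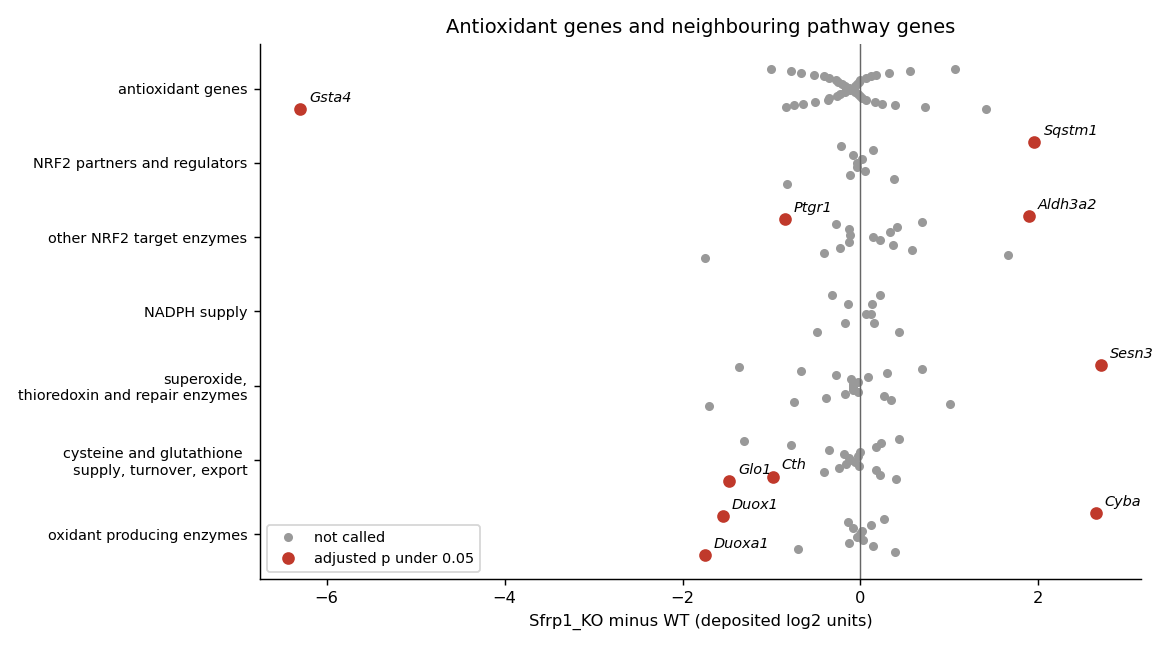
Difference of each gene, Sfrp1_KO minus WT in deposited log2 units, for the 44 antioxidant genes (top row) and the 6 surrounding lists; large red points are genes called by limma at an adjusted p under 0.05 and are named. Of the antioxidant genes 1 is called, and of the 95 surrounding genes 9 are, 4 higher and 5 lower, in 5 of the 6 lists. Over all genes 3.28% are called.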

How the data were processed

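Deposited values are log2 signals per probe set. Per the submitters' processing notes, the tools were Affymetrix Expression Console and RMA. The sources used here give no version, summarisation level or annotation build. Scanner files were not used, and precision is limited by the number of arrays, 3 a genotype. Of 72688 features 30604 carried 1 gene symbol in the platform annotation; 22818 were matched by gene identifier to a RefSeq table of assembly GRCm38.p6, which changed 827 symbols and was used for names and chromosomes. The brightest feature per gene, by mean over the 6 arrays, left 30142 genes. Dim genes were kept. Each antioxidant gene had 1 feature; 5 features with several symbols that name the same families were left out.

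Genotypes were compared over all genes with limma 3.58.1 (R 4.3.3). Its lmFit and eBayes steps gave two-sided p-values, adjusted by Benjamini-Hochberg over all 30142 genes, and a gene was called at an adjusted p under 0.05. Unless another test is named, every adjusted p is from this fit or the named alternative of it. A difference is Sfrp1_KO minus WT with the moderated standard error (SE). A gene is under background where it does not exceed the array's highest antigenomic probe set. Where it was under it on all arrays of 1 genotype, it is given as "at least": the other genotype's mean minus the mean background level of those arrays, with the adjusted p of the difference as fitted. Such a value allows for the background only and not for the spread between arrays. The fit was checked on simulated data with known changes.

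The genes, lists and tests were chosen with earlier results of these data known, so a list's direction is no independent support. By rule, the genes given in full were the called ones and the 8 with the smallest p among the rest above background. Nfe2l2 and Keap1 were given in full too. The values of every array are also printed for further members outside this rule, Gclc, Nqo1, Mgst1, Gpx2, Gstm5 and Gstm1 among them. Gclc, Nqo1, Mgst1 and Gpx2 are also in the plot of single genes on each array. These further members follow no stated rule, so a pattern they share is a description only. The remaining members are described by role. Of each surrounding list up to 3 called genes per direction are named. Sample groups and replicate numbers come from the sample labels. Alternatives were replicate number as a blocking factor, genes above background on fewer than 3 arrays left out, the mean of all features, quantile normalization once more, a common array median, array weights, trend and robust options in eBayes, leaving out each array, and a minimum difference of 1 log2 unit; for the surrounding lists, the block and the left-out arrays were chosen after seeing the data. No 2 arrays held identical values.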

Additional observations from a re-analysis of the deposited data

How the results depend on the processing

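Depth of evidence is 3 arrays a genotype, and 13 of the 44 antioxidant genes had no signal above background to compare. Over all genes 552 were called higher and 437 lower; the counts were 297 and 238 with the replicate number as a block and 295 and 244 with a minimum difference of 1 log2 unit, and 892 were higher after quantile normalization once more. Leaving out 1 array gave 191 to 487 higher and 100 to 407 lower. Of the antioxidant genes 0 were called higher and 1 lower. The number higher was 1 with dim features left out, 1 with array weights and 1 with trend and robust options (Gpx8 each time), 2 after quantile normalization once more (Gpx8 and Prdx4), and 0 to 1 when 1 array was left out. The number lower was 0 with the replicate number as a block, 2 with array weights (Gsta4 and Gpx2), and 0 to 5 when 1 array was left out, with 0 without any 1 of the Sfrp1_KO arrays. Their median difference of -0.13 lay between -0.14 and -0.065 when 1 array was left out, the value nearest 0 without Sfrp1_KO replicate 3. The difference of Keap1 changed sign to 0.019 without Sfrp1_KO replicate 3 (range -0.14 to 0.019 when 1 array was left out), and that of Gclc to 0.01 and 0.12 without WT replicates 2 and 3 (range -0.63 to 0.12). In the surrounding lists 4 were called higher and 5 lower, 2 and 3 with the replicate number as a block, and 2 to 5 and 3 to 7 when 1 array was left out, alternatives chosen after seeing the data. The causes of these changes were not tested, and some of these fits also held fewer samples or genes. Samples with the same replicate number did not deviate together throughout (correlations over genes of 0.18, -0.12 and 0.17 for numbers 1, 2 and 3), so the numbers are not taken to pair samples.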
